A study of Mus musculus with 9 samples.

Results

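The glucocorticoid receptor gene Nr3c1 and 7 genes that the receptor is known to induce, namely Fkbp5, Tsc22d3, Per1, Sgk1, Zbtb16, Dusp1 and Klf9, were read from a gene-level table of 17730 genes. All 8 were found in it by their symbols. The list was chosen by pathway membership, but with the values of these genes in LPS-MCM and Hemin-MCM already in view, so what that comparison gives for the 8 genes is a description and no test is drawn from it. The RNA came from wild-type (WT) astrocytes of C57BL/6 mice taken at P0, as newborns. One group of 3 libraries, LPS-MCM, had received medium conditioned by microglia that had been stimulated with lipopolysaccharide, a component of the bacterial cell wall. The other, Hemin-MCM, also 3 libraries, had received medium of microglia stimulated with hemin, the degradation product of hemoglobin. Astrocytes of both groups thus had microglia-conditioned medium (MCM). Another group, given medium of resting microglia, was not analysed here, so higher and lower always compare LPS-MCM with Hemin-MCM. The labels call the libraries replicates without naming separate cultures or animals, so the errors measure the spread between libraries, which may be technical. Whether the media held a glucocorticoid is not given in the sources used here.

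The glucocorticoid receptor is a ligand-activated transcription factor that waits in the cytoplasm in a complex with the chaperone Hsp90 and its co-chaperones. Corticosterone, the main glucocorticoid of mice, releases it to the nucleus, where receptor dimers bind response elements in DNA and raise the transcription of target genes, while other receptor molecules dampen genes driven by NF-kB and AP-1. Astrocytes carry the receptor, and several of its targets, among them Sgk1, Dusp1, Per1 and Klf9, are also induced by other signals.

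Levels are in FPKM, that is fragments normalised for transcript length and for library depth, which can be compared between genes. The table gives no depth. A rough estimate from the steps between its low values was 34900000 to 38400000 fragments per library, but 54.5% of the 8382 low values compared lay within 0.1 step of a whole number of fragments, so no count is read from a single value. Within a group the libraries correlated at 0.9944 to 0.9968 across genes and between groups at 0.981 to 0.9854 (Pearson, log2(FPKM + 1)). Differences, LPS-MCM minus Hemin-MCM in log2(FPKM + 1), were fitted with limma over all 11688 genes that averaged 1 FPKM or more, and a gene is called where its Benjamini-Hochberg adjusted p was at most 0.05. The summed level of 8 astrocyte markers was 1225 to 1269 FPKM in LPS-MCM and 1492 to 1563 FPKM in Hemin-MCM. Of the 8, Gfap, Aldh1l1, Slc1a3 and Gja1 were called lower in LPS-MCM, Slc1a2 was called higher, and Aqp4, Sox9 and S100b were not called. Over all genes tested, 13.8% were called lower and 6.72% higher. The count of lower markers was 2 without LPS-MCM library 1 or Hemin-MCM library 1, 1 without Hemin-MCM library 3, and 2 under median-of-ratios scaling. Gfap averaged 456.4 FPKM in LPS-MCM and 676.2 FPKM in Hemin-MCM, and Slc1a2, a glutamate transporter gene, 54.8 FPKM in LPS-MCM and 42.0 FPKM in Hemin-MCM. Markers of microglia were present as well: the sum over 9 of them was 238.2 to 269.6 FPKM in LPS-MCM and 443.5 to 447.1 FPKM in Hemin-MCM, and 8 of the 9 were called lower in LPS-MCM. The 9 moved unevenly, so their sum does not measure an amount of microglial RNA. Itgam averaged 98.9 FPKM in LPS-MCM and 108.2 FPKM in Hemin-MCM and was not called (-0.13 ± 0.05). Cx3cr1 averaged 5.92 FPKM in LPS-MCM and 34.0 FPKM in Hemin-MCM (-2.34 ± 0.06). Each RNA is a mixture, in which fewer cells of a type and less RNA of its marker genes per cell cannot be told apart.

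RefSeq promoter windows (GRCm38.p6, 250 bases before to 50 after an annotated start) covered 6 of the 8 genes with 14 windows. Both strands were searched for the palindromic glucocorticoid response element in its strict spelling, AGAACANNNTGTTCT, and for its single hexamer AGAACA, which every palindromic match also contains. The palindrome was in 3 of all 32851 windows (0.00913%), and 1 of those 3 belonged to Sgk1. The other windows with it belong to Acnat2 and Gm35041, which are not in the table, so presence of the palindrome could not be compared with expression. It lay at positions -189 to -175 from the annotated start in the fifth of 6 Sgk1 windows, numbered along the chromosome. The single hexamer was in 19% of all windows and in 4 of the 14, of which 3 belonged to Sgk1 and 1 to Tsc22d3. The core of the cyclic AMP response element, TGACGT, a motif added after the windows had been read, was in 7.51% of all windows and in 3 of the 14, those of Per1, Dusp1 and Klf9. A match is a stretch of letters, not a site shown to be bound, and most response elements of the receptor lie outside such windows. The table gives 1 value per gene and does not say which start was used. The Sgk1 window (chr10:21993640-21993939, + strand) and the Dusp1 window (chr17:26508423-26508722, - strand) are shown because they hold the palindrome and the most cyclic AMP cores. Capitals mark the response element and hexamers in Sgk1 and the cores in Dusp1, both written 5′ to 3′ on the gene's strand.
Sgk1: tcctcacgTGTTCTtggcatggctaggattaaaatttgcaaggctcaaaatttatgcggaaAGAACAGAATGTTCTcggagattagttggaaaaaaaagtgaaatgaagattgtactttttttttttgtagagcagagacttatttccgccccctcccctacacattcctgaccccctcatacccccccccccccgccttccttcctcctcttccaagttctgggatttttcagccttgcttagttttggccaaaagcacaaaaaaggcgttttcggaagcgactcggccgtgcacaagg
Dusp1: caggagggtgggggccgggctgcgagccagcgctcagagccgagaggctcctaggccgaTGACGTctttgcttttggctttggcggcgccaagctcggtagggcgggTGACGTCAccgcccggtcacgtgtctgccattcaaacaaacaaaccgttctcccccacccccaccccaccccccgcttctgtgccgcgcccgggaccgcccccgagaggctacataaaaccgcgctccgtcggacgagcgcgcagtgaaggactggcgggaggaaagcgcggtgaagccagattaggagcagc

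**Figure D1:**
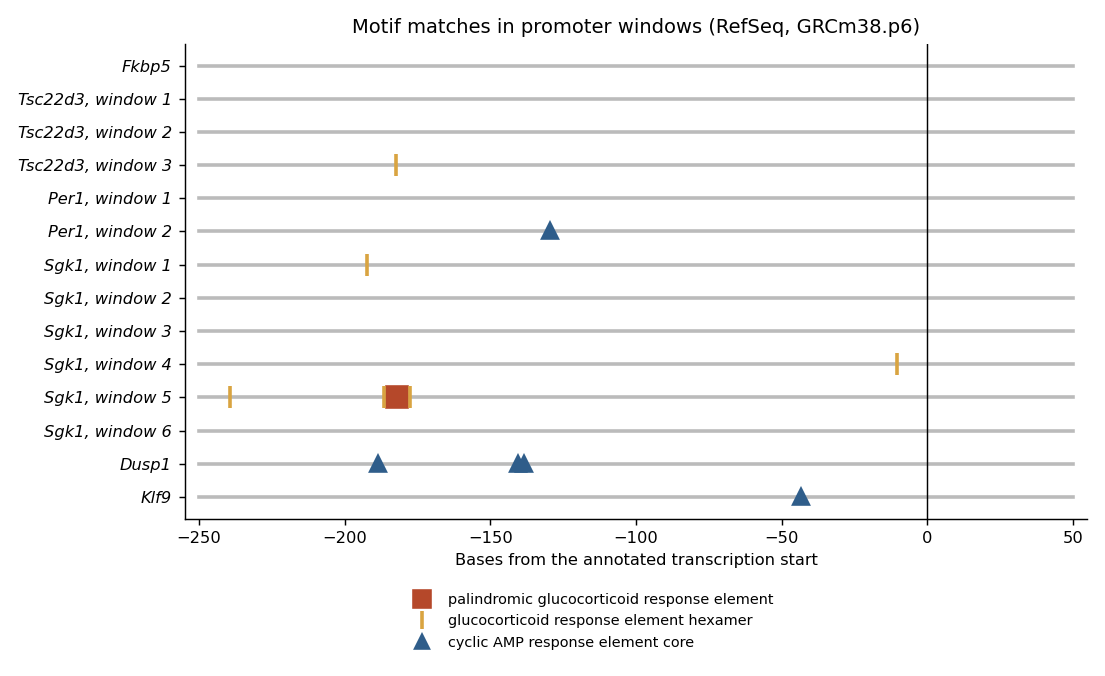
Motif matches in the 14 promoter windows of 6 of the 8 genes, by distance from the annotated transcription start (bases), with 1 line per window. The palindromic element appears once, in the fifth Sgk1 window, and the cyclic AMP core in windows of Per1, Dusp1 and Klf9.

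Sgk1 and Fkbp5 were the members that stood lowest in LPS-MCM relative to Hemin-MCM, at about 0.465 and 0.53 times the level, while the receptor's own gene was slightly higher in LPS-MCM. Dusp1 was lower by a smaller amount. Tsc22d3, Per1 and Klf9 had libraries that overlapped between the groups, and Zbtb16 was hardly detected.

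Nr3c1 encodes the receptor (chromosome 18, 39410545 to 39519421). It was at 19.1, 17.4 and 20.4 FPKM in the LPS-MCM libraries and at 17.1, 16.9 and 16.4 FPKM in the Hemin-MCM libraries. Every LPS-MCM library lay above every Hemin-MCM library, but the lowest LPS-MCM value exceeded the highest Hemin-MCM value by less than the spread within LPS-MCM. The means were 19.0 ± 1.51 and 16.8 ± 0.362 FPKM (LPS-MCM and Hemin-MCM, SD, n = 3 each), a difference of 0.17 ± 0.06 (SE) in log2(FPKM + 1). The difference was 0.22 without the second LPS-MCM library and 0.11 without the third, and 0.22 under median-of-ratios scaling; Nr3c1 was called higher without the second LPS-MCM library and under that scaling, and in none of the other 10 alternatives. The receptor transcript stood above 79.1% of the genes in the table.

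Fkbp5 encodes FKBP51, a co-chaperone that lowers the hormone affinity of the receptor and is itself induced by it, which closes a feedback loop (chromosome 17, 28398753 to 28486149). Its level was 1.91, 2.33 and 2.08 FPKM in LPS-MCM and 4.04, 3.61 and 4.28 FPKM in Hemin-MCM. The groups did not overlap, and the gap between them was wider than the range within either. Mean levels were 2.11 ± 0.215 FPKM in LPS-MCM and 3.98 ± 0.339 FPKM in Hemin-MCM, with a difference of -0.68 ± 0.08 in log2(FPKM + 1). Of 11688 genes tested, 171 had a more negative difference.

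Sgk1 encodes the serum- and glucocorticoid-regulated kinase 1, which acts on ion channels and transporters (chromosome 10, 21882184 to 21999903). It was at 2.86, 3.27 and 3.46 FPKM in LPS-MCM and at 7.15, 6.64 and 6.84 FPKM in Hemin-MCM. No library of one group came near the other group. The means were 3.2 ± 0.308 FPKM in LPS-MCM and 6.88 ± 0.254 FPKM in Hemin-MCM, and the difference was -0.91 ± 0.07 in log2(FPKM + 1). A more negative difference was seen in 72 of the genes tested. With a pseudocount of 0.1 in place of 1, which reduces the compression of low values, the differences of Sgk1 and Fkbp5 were -1.08 and -0.89. Over all 12 alternatives Sgk1 lay between -1.08 and -0.84 and Fkbp5 between -0.89 and -0.59.

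Dusp1 encodes a phosphatase that switches off MAP kinases and is counted among the anti-inflammatory targets of the receptor (chromosome 17, 26505591 to 26508472). The LPS-MCM libraries held 12.6, 13.7 and 14.6 FPKM and the Hemin-MCM libraries 17.7, 15.5 and 16.5 FPKM. The groups did not overlap, although the highest LPS-MCM value and the lowest Hemin-MCM value lay closer together than the outer libraries of either group. Levels averaged 13.6 ± 0.983 FPKM in LPS-MCM and 16.5 ± 1.09 FPKM in Hemin-MCM, a difference of -0.26 ± 0.07 in log2(FPKM + 1). It was -0.21 without the first LPS-MCM library, -0.22 without the first and -0.27 without the third Hemin-MCM library, and -0.21 under median-of-ratios scaling. In these 4 settings, and without the low-value filter, Dusp1 was not called.

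Klf9, which encodes a zinc finger transcription factor that responds early to the receptor (chromosome 19, 23141226 to 23168129), was at 6.62, 6.97 and 7.73 FPKM in LPS-MCM and at 7.73, 7.6 and 8.01 FPKM in Hemin-MCM. The third LPS-MCM library lay among the Hemin-MCM libraries, and the difference was -0.12 ± 0.07 in log2(FPKM + 1). Tsc22d3 encodes GILZ, the glucocorticoid-induced leucine zipper protein, which restrains NF-kB and AP-1 (chromosome X, 140539528 to 140600522). Its values were 2.06, 1.75 and 1.85 FPKM in LPS-MCM and 2.63, 2.19 and 1.72 FPKM in Hemin-MCM. The Hemin-MCM libraries spread around the whole LPS-MCM range, so the difference of -0.13 ± 0.11 was within the replicate error; it was -0.03 without the first and -0.24 without the third Hemin-MCM library. Per1 encodes a repressor of the circadian clock (chromosome 11, 69095108 to 69109965) and was at 3.73, 3.73 and 3.86 FPKM in LPS-MCM and 3.49, 3.34 and 3.86 FPKM in Hemin-MCM. Its groups overlapped, with a difference of 0.07 ± 0.07 in log2(FPKM + 1).

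Zbtb16 encodes the zinc finger factor PLZF, a target with a large response to glucocorticoids in many tissues (chromosome 9, 48651797 to 48836225). It was at 0.0171, 0.0341 and 0.016 FPKM in LPS-MCM and at 0.0528, 0.0275 and 0.0384 FPKM in Hemin-MCM. The groups overlapped, no fold change is given at these low levels, and Zbtb16 is the 1 member below the low-value filter of a mean of 1 FPKM.

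**Figure D2:**
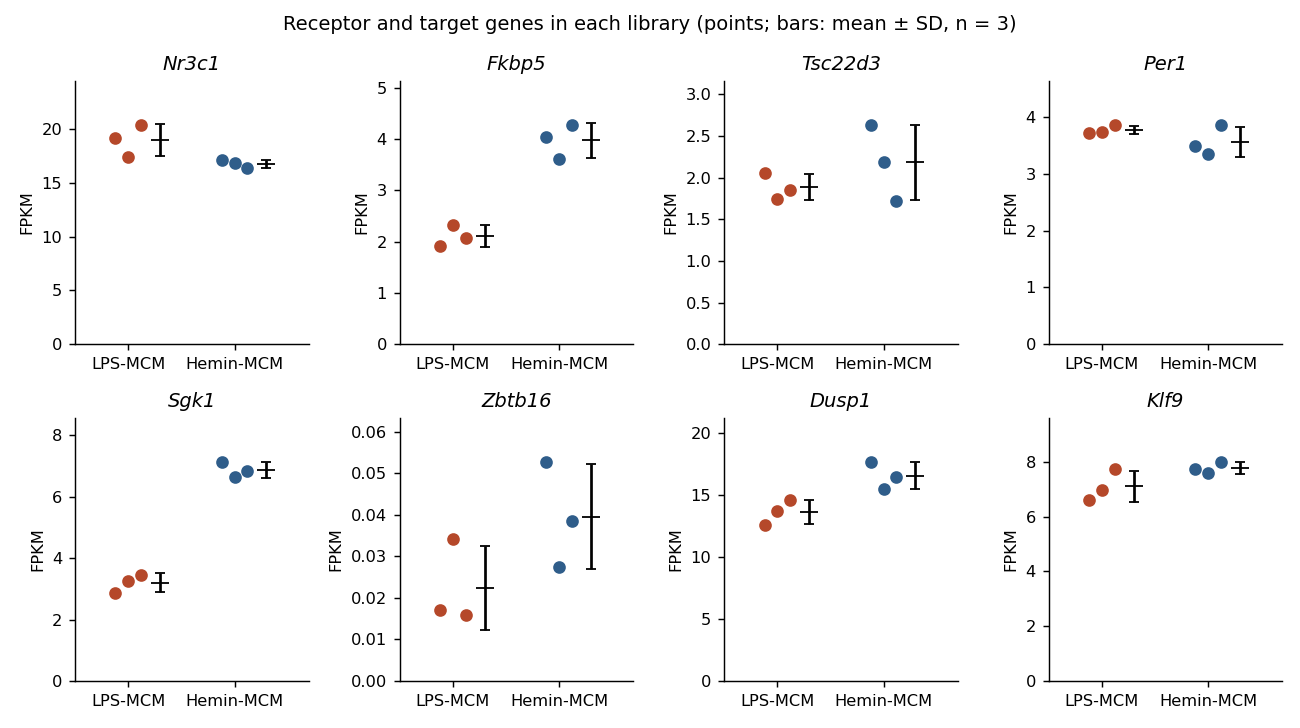
FPKM of each of the 8 genes in each library (points, replicates 1 to 3 from left to right) with the group mean ± SD (black, n = 3). Sgk1 and Fkbp5 separate the groups most widely, with LPS-MCM means of 3.2 and 2.11 FPKM against Hemin-MCM means of 6.88 and 3.98 FPKM, and Zbtb16 stays under 0.06 FPKM.

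By level, the order in LPS-MCM was Nr3c1, Dusp1, Klf9, Per1, Sgk1, Fkbp5, Tsc22d3 and Zbtb16, and among neighbours the libraries of Fkbp5 and Tsc22d3 overlapped. In Hemin-MCM it was Nr3c1, Dusp1, Klf9, Sgk1, Fkbp5, Per1, Tsc22d3 and Zbtb16, where Nr3c1 overlapped with Dusp1 and Fkbp5 with Per1. Sgk1 and Fkbp5 thus stood above Per1 in Hemin-MCM by mean and below it in LPS-MCM. The third LPS-MCM library was the highest of its group for 5 of the 8 genes, namely Nr3c1, Per1, Sgk1, Dusp1 and Klf9.

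Of the 7 members tested, 3 were called lower in LPS-MCM (Sgk1, Fkbp5 and Dusp1) and 0 higher, where over all genes tested 20.5% were called, 13.8% lower and 6.72% higher. Libraries of the groups did not overlap for 4 of the 7, against 37.5% of all genes tested. Since the list was drawn up with this comparison in view, nothing is read from these counts. Of all called genes 32.8% were higher in LPS-MCM, and this share was 49.9% after median-of-ratios scaling, with 995 of 2213 called genes higher after quantile normalization. The median difference of all genes was -0.04 without that scaling and 0.01 with it. Levels of the microglia markers moved in the same direction as Sgk1, Fkbp5 and Dusp1, and their part in these differences was not tested.

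**Figure D3:**
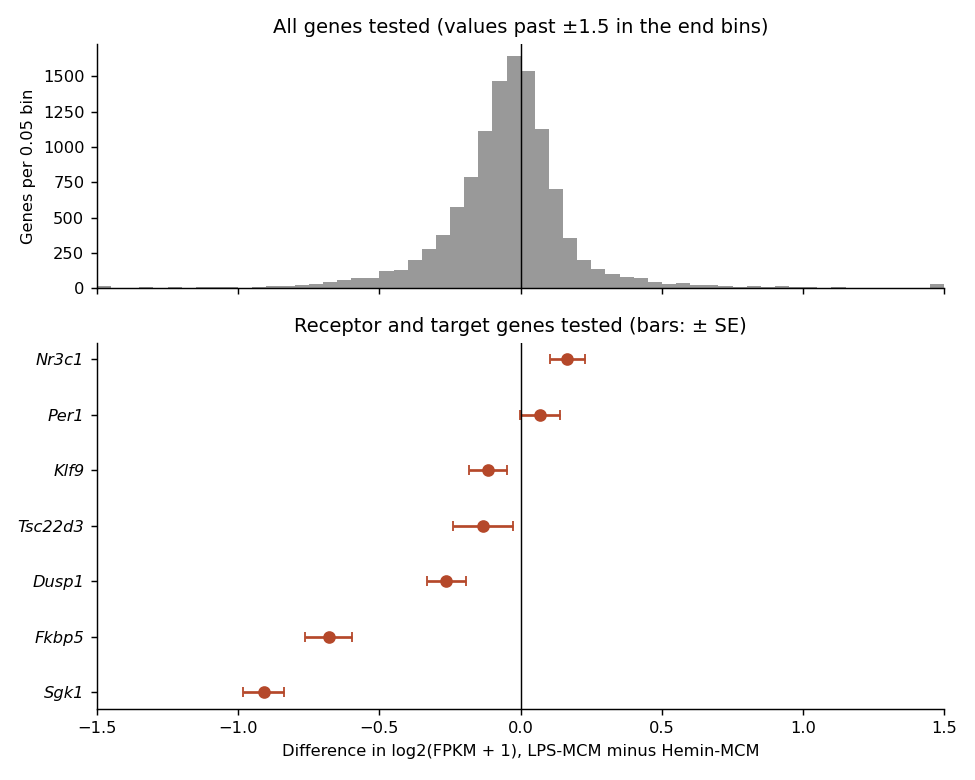
Upper panel, histogram of the difference in log2(FPKM + 1), LPS-MCM minus Hemin-MCM, over 11688 genes; lower panel, the 7 tested members with their SE. Sgk1 (-0.91) and Fkbp5 (-0.68) lie in the left tail of all genes, and Nr3c1 (0.17) and Per1 (0.07) are on the positive side.

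The genes with the most similar profiles were sought by the root mean square difference between log2(FPKM + 1) profiles over the 6 libraries, each centred on its own mean, among genes that averaged 5 FPKM or more. Nearest to Nr3c1 were Acap2 (0.0112), which encodes a GTPase-activating protein for ARF proteins, the growth factor gene Nrg1 (0.0176) and Sltm (0.0196). Among the 3 nearest to Fkbp5 were the lysosomal protease gene Ctss (0.0646) and Ms4a7 (0.0669), both known from microglia and macrophages. Ctss averaged 102.9 ± 5.01 FPKM in LPS-MCM and 153.6 ± 6.24 FPKM in Hemin-MCM.

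Of 16 chaperones and co-chaperones of the receptor complex, Stip1 was called higher in LPS-MCM, Dnajb1 was called lower and 14 were not called, where 6.72% of all genes tested were called higher and 13.8% lower. The median difference of the list was -0.02, against -0.04 for all genes tested. Stip1, which encodes the adaptor HOP between Hsp70 and Hsp90, averaged 141.1 ± 5.57 FPKM in LPS-MCM and 111.0 ± 4.58 FPKM in Hemin-MCM (difference 0.34 ± 0.05, limma adjusted p = 0.00108). Dnajb1, an Hsp40 gene, was at 9.54 ± 0.523 FPKM in LPS-MCM and 11.2 ± 0.129 FPKM in Hemin-MCM (-0.21 ± 0.06, limma adjusted p = 0.0271). Its call was lost when LPS-MCM library 2 or 3 was left out (limma adjusted p = 0.0612 or 0.0565), or Hemin-MCM library 1, 2 or 3 (0.0762, 0.0885 or 0.0771), and under both other scalings (0.0932 and 0.0749). Fkbp4, whose product FKBP52 competes with FKBP51 for the receptor complex, was at 49.5 ± 0.911 FPKM in LPS-MCM and 52.8 ± 1.83 FPKM in Hemin-MCM and was not called (difference -0.09 ± 0.05). Hsp90ab1, the most abundant chaperone gene of the list, was not called either (0.12 ± 0.05), although its libraries did not overlap between the groups. Under median-of-ratios scaling it was called higher (0.18 ± 0.05, limma adjusted p = 0.0428).

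Among 12 co-regulators of nuclear receptors, Nrip1 was called higher (6.72% of all genes tested) and the other 11 were not called, with a median difference of -0.01 in the list. Nrip1, which encodes the corepressor RIP140, averaged 6.99 ± 0.515 FPKM in LPS-MCM and 4.91 ± 0.315 FPKM in Hemin-MCM (0.43 ± 0.07, limma adjusted p = 0.002). The coactivator gene Ncoa3 was at 8.08 ± 0.398 FPKM in LPS-MCM and 9.2 ± 0.512 FPKM in Hemin-MCM without passing. Of 7 genes for steroid handling and the mineralocorticoid receptor, 5 were below the filter and 2 were tested and not called (20.5% of all genes tested were called). The mineralocorticoid receptor gene Nr3c2, whose product binds the same hormone, was at 0.795 ± 0.112 FPKM in LPS-MCM and 0.902 ± 0.0998 FPKM in Hemin-MCM, far below Nr3c1. Hsd11b1, which encodes the enzyme that regenerates active glucocorticoid inside cells, was at 0.31 ± 0.0862 FPKM in LPS-MCM and 0.349 ± 0.27 FPKM in Hemin-MCM, and both genes overlapped between the groups.

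Further genes that glucocorticoids induce in various tissues moved in both directions. Of 30 listed, 24 were tested; 6 of them were called lower in LPS-MCM (13.8% of all genes tested) and 3 higher (6.72%), and the list's median difference was -0.05 against -0.04 for all genes. Pdk4, which encodes a kinase that restrains pyruvate oxidation, averaged 3.59 ± 0.369 FPKM in LPS-MCM and 5.56 ± 0.236 FPKM in Hemin-MCM (-0.52 ± 0.08, limma adjusted p = 0.000972). The cell cycle inhibitor gene Cdkn1c was at 1.47 ± 0.167 FPKM in LPS-MCM and 2.61 ± 0.481 FPKM in Hemin-MCM (-0.54 ± 0.11, limma adjusted p = 0.00515). In the other direction, Angptl4, which encodes an inhibitor of lipoprotein lipase, averaged 22.6 ± 1.29 FPKM in LPS-MCM and 15.7 ± 0.31 FPKM in Hemin-MCM (0.50 ± 0.06, limma adjusted p = 0.000169). Nfkbia, the gene of an NF-kB inhibitor that NF-kB itself also induces, was at 336.0 ± 12.7 FPKM in LPS-MCM and 262.6 ± 9.14 FPKM in Hemin-MCM (0.35 ± 0.05, limma adjusted p = 0.000951). Klf15 and Per2 were not called, with differences of -0.02 ± 0.09 and 0.01 ± 0.06. In the GO annotation of the table, looked up after the values were seen, 88 genes carry a term that names glucocorticoids or corticosteroids, among them Nr3c1, Per1 and Sgk1; of the 60 tested, 8 were called higher (13.3%) and 9 lower (15%).

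Among 7 dual-specificity phosphatases tested besides Dusp1, Dusp2 and Dusp16 were called higher in LPS-MCM, and Dusp14 and Dusp6 were called lower, that is 2 in each direction where 6.72% of all genes tested were higher and 13.8% lower. The list had a median difference of -0.13. Dusp16, a phosphatase for JNK and p38, averaged 23.1 ± 0.799 FPKM in LPS-MCM and 17.0 ± 0.452 FPKM in Hemin-MCM (0.42 ± 0.05, limma adjusted p = 0.000317). Dusp14 was at 1.83 ± 0.0928 FPKM in LPS-MCM and 3.52 ± 0.246 FPKM in Hemin-MCM (-0.68 ± 0.07, limma adjusted p = 0.000151). Dusp6, a phosphatase for ERK, had a difference of -0.26 ± 0.06, and leaving out LPS-MCM library 1 or Hemin-MCM library 3 ended its call (limma adjusted p = 0.0541 or 0.069). Dusp2 averaged 1.83 ± 0.467 FPKM in LPS-MCM and 0.456 ± 0.436 FPKM in Hemin-MCM (0.99 ± 0.19), and it was below the low-value filter when LPS-MCM library 2 or 3 was left out.

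Of 10 Kruppel-like factors tested besides Klf9, Klf5, Klf13 and Klf10 were called lower (13.8% of all genes tested) and Klf6 higher (6.72%), and the median difference of the list was -0.10. Klf5 averaged 2.74 ± 0.319 FPKM in LPS-MCM and 4.86 ± 0.358 FPKM in Hemin-MCM (-0.65 ± 0.08, limma adjusted p = 0.000434), and Klf13 was at 8.27 ± 0.658 FPKM in LPS-MCM and 10.9 ± 0.108 FPKM in Hemin-MCM (-0.36 ± 0.06, limma adjusted p = 0.00281). Klf10 (-0.35 ± 0.10) lost its call without any single library except the third LPS-MCM library (limma adjusted p = 0.0556 to 0.0928). Klf6 (0.24 ± 0.06) lost it when LPS-MCM library 1 or 3 was left out (limma adjusted p = 0.076 or 0.0551), or Hemin-MCM library 2 or 3 (0.0875 or 0.104), and neither Klf10 nor Klf6 was called without the low-value filter.

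Among 13 circadian clock genes tested besides Per1, 0 were called higher and 3 were called lower, namely Nr1d1 (-0.31 ± 0.09), Bhlhe41 (-0.25 ± 0.08) and Tef (-0.16 ± 0.05). Over all genes tested 6.72% were called higher and 13.8% lower, and the median difference of the clock list was -0.07. That count was 0 without LPS-MCM library 1, Hemin-MCM library 1 or Hemin-MCM library 3, and 1 without any other single library. It was also 0 under median-of-ratios scaling and under quantile normalization. Per2, a relative of Per1, was at 7.17 ± 0.265 FPKM in LPS-MCM and 7.12 ± 0.176 FPKM in Hemin-MCM. Of 11 tested relatives of the remaining members, Tsc22d1 was called lower, at 32.1 ± 0.579 FPKM in LPS-MCM and 39.8 ± 0.762 FPKM in Hemin-MCM (-0.30 ± 0.05, limma adjusted p = 0.00106), and 10 were not called, against 13.8% lower over all genes tested; the list median was -0.06. Tsc22d4 (-0.09 ± 0.05) and Sgk3 (0.14 ± 0.08), a kinase gene related to Sgk1, were among these.

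**Figure D4:**
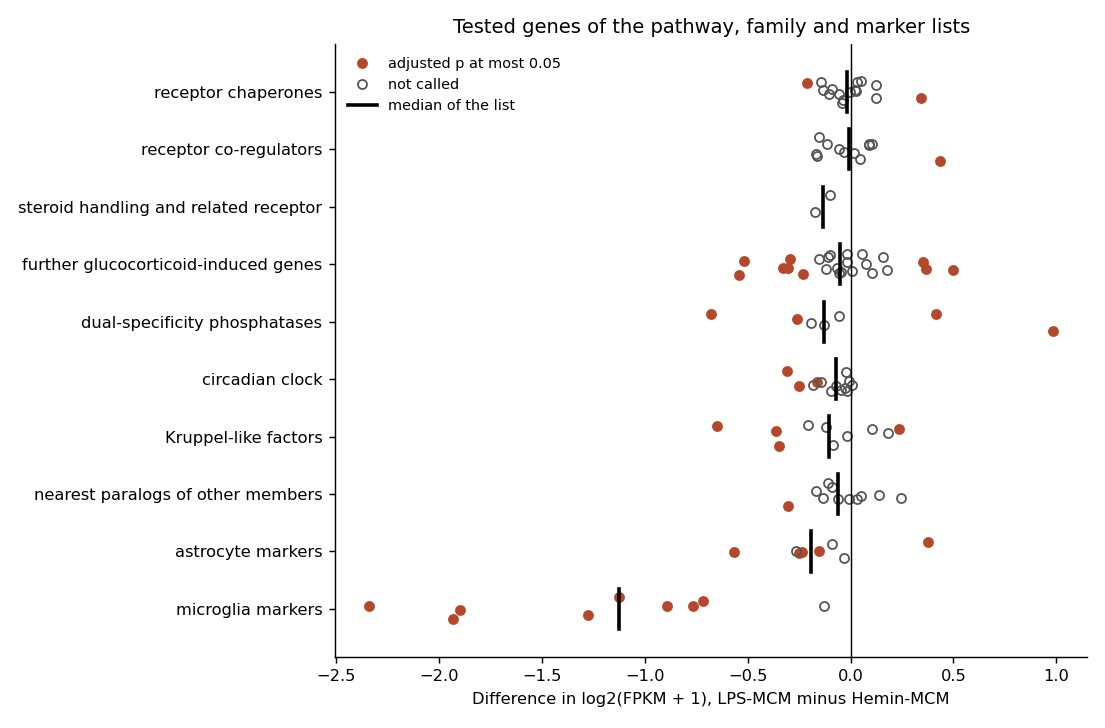
Difference in log2(FPKM + 1), LPS-MCM minus Hemin-MCM, of the tested genes of 8 pathway and family lists and of the astrocyte and microglia markers (filled, adjusted p of at most 0.05; open, not called; bar, median). Medians of the 8 lists lie between -0.14 and -0.01, and that of the microglia markers is -1.12.

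Markers of other cells were present at differing levels. Beside the counts of called markers below, 13.8% of all genes tested were called lower and 6.72% higher. The sum of 6 neuron markers was 10.3 to 10.8 FPKM in LPS-MCM and 10.6 to 11.4 FPKM in Hemin-MCM, with Rbfox3 under 0.1 FPKM in every library. Of the 2 tested, Gad1 was called higher in LPS-MCM (0.41 ± 0.07) and Tubb3 was not called (-0.20 ± 0.07). For 7 oligodendrocyte lineage markers the sum was 67.8 to 74.5 FPKM in LPS-MCM and 79.3 to 83.3 FPKM in Hemin-MCM, and for 7 endothelial and mural markers 12.2 to 12.7 FPKM in LPS-MCM and 12.6 to 13.4 FPKM in Hemin-MCM. The sum of 5 meningeal fibroblast markers was 16.8 to 20.9 FPKM in LPS-MCM and 12.1 to 25.3 FPKM in Hemin-MCM. Of the 4 tested, Lum (1.23 ± 0.13) and Dcn (0.60 ± 0.11) were called higher in LPS-MCM, and the count of higher markers was 2 in every alternative. Col1a1 and Col1a2 were not called, and both were highest in Hemin-MCM library 2, at 8.86 and 10.1 FPKM. For 6 ependymal markers the sum was 251.1 to 266.4 FPKM in LPS-MCM and 289.2 to 304.3 FPKM in Hemin-MCM. Of the 5 ependymal markers tested, 4 were called lower, among them Foxj1, a regulator of motile cilia, at 127.2 FPKM in LPS-MCM and 168.6 FPKM in Hemin-MCM, and Ccdc153, with a difference of -1.21 ± 0.09. The other, Rarres2, was called higher (0.18 ± 0.05), but not without LPS-MCM library 1 or any 1 of the Hemin-MCM libraries. The sums of the oligodendrocyte lineage and ependymal markers did not overlap and were lower in LPS-MCM. Of the 6 oligodendrocyte lineage markers tested, Olig1 was called lower and 5 were not called. In 4 of the 12 alternatives, 0 oligodendrocyte lineage markers were called lower. The part of all these markers in the differences of the receptor's targets was not tested.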

How the data were processed

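Poly(A) RNA libraries were made with a stranded kit, per the labels' protocols. The authors deposited 1 table of FPKM values per gene and library; build mm10 and DESeq (no version) are named in the submitters' processing notes, while aligner, counter and annotation are not named there. Treatment and number in a column name tied it to its sample. A further 3 value columns match no sample title and were not used.

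FPKM are not counts, so log2(FPKM + 1) was fitted with limma 3.58.1 (R 4.3.3; 1 mean per group, mean-variance trend, two-sided, Benjamini-Hochberg over 11688 genes averaging 1 FPKM or more in the 6 libraries, 4 residual degrees of freedom). This scale understates changes of low genes. The fit was tested on simulated data. Depth was roughly estimated from the steps of values under 0.3 FPKM and transcript lengths of 222 genes with 1 GENCODE vM21 transcript (quartiles 35400000 and 47600000 fragments), and covers counting error only.

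The 8 genes and 15 lists (161 genes, 1 not in the table) were chosen with earlier results of these data known. Named are the members, up to 4 genes of each of 8 pathway lists by adjusted p, 7 fixed genes and the 3 profiles nearest to Nr3c1 and to Fkbp5, of which 1 is not reported here; the marker genes given with values were picked with these in view. Coordinates are RefSeq GRCm38.p6 (mm10), joined by gene identifier for 17618 genes. Alternatives were another pseudocount, no filter, median-of-ratios and quantile scaling, leaving out each library, a replicate block and no trend.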

Additional observations from a re-analysis of the deposited data

How the results depend on the processing

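The alternatives left the signs of all 7 tested members as reported, and Sgk1 and Fkbp5 were called lower in all 12. Over the leave-one-out fits, 1639 to 2415 genes were called (2400 with all libraries), 581 to 763 higher (786) and 1058 to 1652 lower (1614); the lowest number of lower genes, 1058, came without the third Hemin-MCM library. For the 41 other genes checked one by one, 433 of 490 comparisons kept their call status, 45 lost a call and 12 gained one. Among the genes called in the fit reported above, 0 comparisons reversed direction. For genes not called there, a change of direction was not checked. The labels do not say whether libraries that share a replicate number are paired. Their deviations from the group means correlated at 0.0796, 0.107 and -0.106. The highest correlation was that of the second LPS-MCM library with the third Hemin-MCM library (0.126). With 3 libraries per group these correlations cannot decide whether the libraries are paired. With the number as a replicate block, 2330 genes were called, 752 higher and 1578 lower, with the same 3 members called lower. Zbtb16 was too low to be tested. No comparison with the medium of resting microglia was made, so a difference may come from either group.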
